A study of Mus musculus with 4 samples.

Results

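Transcripts of 36 genes that mark leukocyte lineages were followed in MK1 and MK2, which are 2 lines of mouse keratinocytes. These genes are 36 of the 23420 gene rows in the deposited count table, and all 36 were found by symbol. They comprise 12 B-cell genes, 4 T-cell genes, 10 myeloid genes and 10 genes expressed across leukocytes. The members were chosen by reading the MK2 against MK1 counts of this same table, after B-cell reads had been seen in MK1. Their difference between the lines is therefore given as a description, with no p-value for any member, and every fold below is MK1 relative to MK2 unless stated. The study sequenced total RNA from 2 replicate cultures of each line, described in the labels as keratinocyte cell lines, with no further treatment named. Strain, sex, passage, medium and the derivation of either line are not given in the sources used here, so each line stands for itself alone.

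Leukocytes are known by the receptors and signalling proteins that they carry. A B lymphocyte displays an immunoglobulin whose signal is passed on by the Cd79a and Cd79b chains. A T lymphocyte displays a T-cell receptor coupled to the Cd3 chains, and macrophages and dendritic cells signal through receptor adaptors such as Fcer1g and Tyrobp. Healthy mouse epidermis houses Langerhans cells, which are myeloid cells marked by Cd207, and dendritic epidermal T cells, whereas B lymphocytes reside mainly in blood and lymphoid organs. Keratinocytes themselves carry some immune genes, among them genes of innate sensing.

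The libraries held 25237391 to 30261111 counts. Each of 12 basal keratinocyte genes had 10 counts or more in each line, a bar that Kdr and Tyr of other lists also passed. The abundance of Krt14 and Krt5 in both lines speaks more to the keratinocyte label. Krt14 had 264731 and 236740 counts in MK1 and 231001 and 215355 in MK2. Krt5, the type II keratin of basal cells, had 217795 to 241756 counts in MK1 and 199117 to 223028 in MK2. Trp63, which encodes p63, had 6711 and 5740 counts in MK1 and 6676 and 7267 in MK2. Of the basal genes, Col17a1, Perp, Lamb3 and Dsg3 were called lower in MK2, Itga6 was called higher and 7 were not called. The calls of Perp (without MK1 replicate 2) and Dsg3 (without MK1 replicate 1, MK1 replicate 2 or MK2 replicate 2) ended when a library was left out. Of the fibroblast, endothelial and melanocyte lists 3 genes each had enough counts for the test, and 0 hepatocyte genes had. The fibroblast genes tested were Twist1, Pdgfra and Vim, the endothelial ones Kdr, Pecam1 and Eng, and the melanocyte ones Mitf, Tyr and Pmel, while Dcn, Lum, Cdh5, Dct and Alb of the same lists had at most 1 count in any library. Kdr had 519 and 376 counts in MK1 and 613 and 742 in MK2. It was called higher in MK2, but not without MK1 replicate 2. Mitf had 102 and 72 counts in MK1 and 14 and 20 in MK2, and was called lower in MK2. Tyr had 31 to 69 counts a library, Pmel 24 to 41, Pecam1 21 to 34 and Eng 29 to 47, and these were not called. Twist1 and Pdgfra, both called lower in MK2, are given further below. The part of such cells in the results was not tested.

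Both MK1 libraries carried B-cell and general leukocyte transcripts at low levels, and MK2 carried few of them. Levels are given as CPM, that is, counts divided by the TMM-scaled size of the library and set to a common total of 1000000. The 12 B-cell genes summed to 17.7 and 17.6 CPM in the MK1 replicates and to 0.834 and 0.882 CPM in the MK2 replicates, so that MK2 held 4.86% of the MK1 level. The 10 general leukocyte genes summed to 31.1 and 32.8 CPM in MK1 and to 1.79 and 1.30 CPM in MK2, or 4.84%. The 10 myeloid genes summed to 26.9 and 24.8 CPM in MK1 and to 2.74 and 4.16 CPM in MK2, or 13.4%. The 4 T-cell genes summed to 0.164 and 0.335 CPM in MK1 and to 0.119 and 0.106 CPM in MK2, which is 14 counts against 6. Which cells held these transcripts was not tested. In bulk RNA, fewer cells with a transcript and less RNA per cell cannot be told apart.

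**Figure D1:**
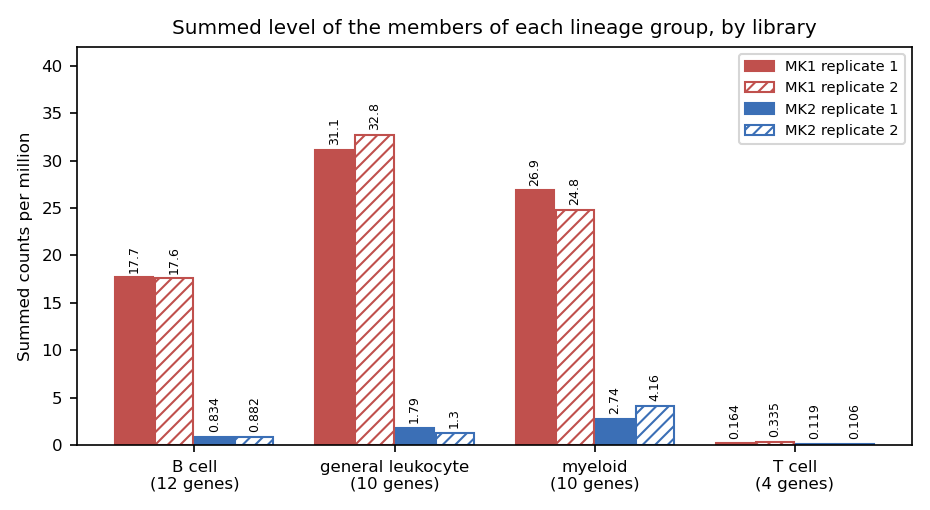
Summed CPM of the members of each lineage group (vertical axis, from 0) in each of the 4 libraries, with 1 bar per library and its value above it. The MK1 bars of the B-cell group (12 genes) stand at 17.7 and 17.6 and its MK2 bars below 1. The highest bar of the T-cell group (4 genes) is 0.335.

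In MK1, 1 gene held most of the myeloid counts, and 1 gene a large part, though not most, of the general leukocyte counts. Cd68 made up 64.7% of the myeloid counts in MK1, and without it the myeloid sum was 9.15 ± 0.333 CPM in MK1 and 0.827 ± 0.327 CPM in MK2. Here and below, ± gives the SD over replicate cultures (n = 2 a line). Lcp1 made up 40.6% of the general leukocyte counts in MK1, and without it that sum was 18.9 ± 1.36 and 1.29 ± 0.478 CPM. In the B-cell sum, Cd22, which had the most counts over all 4 libraries, made up 16.9% of the counts in MK1. The 71.4% share of Cd8a in the T-cell sum was 10 of 14 counts.

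Of the 36 members, 22 had enough counts for the test across all genes, and 19 of these 22 reached the count filter through MK1 alone. The 3 that passed it in both lines were Arhgdib, Cd14 and Cd68. All 22 were called lower in MK2 and 0 higher (quasi-likelihood test in edgeR, Benjamini-Hochberg adjusted p under 0.05), where 28.6% of 12479 genes tested were called lower and 25.9% higher. Since the members were picked on this contrast, and 19 could be tested only because MK1 was high, nothing is read from that count. The other 14 members, among them all 4 T-cell genes, had too few counts to be tested. Without MK1 replicate 1 the count was 19, with Blnk, Csf1r and Rac2 no longer called at log2 differences (MK2 minus MK1) of -2.63, -2.37 and -2.33. Without MK1 replicate 2, Blnk was not called (log2 difference -2.75), nor was it in DESeq2 (-2.78).

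**Figure D2:**
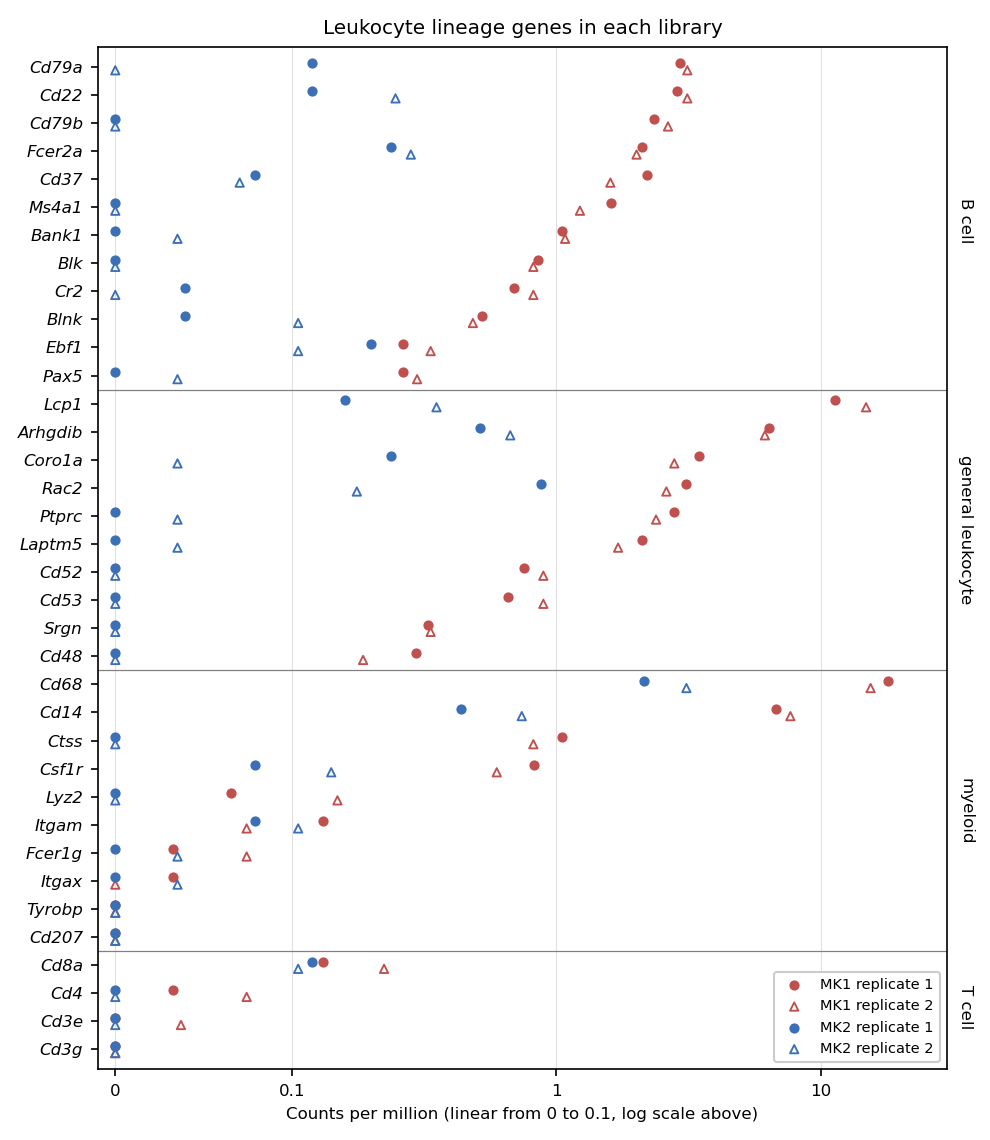
CPM of each of the 36 members (rows, in 4 lineage groups, ordered by the MK1 mean) in the 4 libraries, on an axis that is linear from 0 to 0.1 and logarithmic above. For Cd79a, Cd22, Ptprc and Lcp1 the MK1 libraries (red) lie to the right of the MK2 libraries (blue), whereas Fcer1g, Itgam and Itgax overlap and Tyrobp, Cd207 and Cd3g are at 0 throughout.

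The signalling chains of the B-cell receptor were counted in MK1 at similar depth. Cd79a (chromosome 7, 24897511 to 24902197, mm10, plus strand, 5 exon pieces in the table) had 89 and 84 counts in the MK1 replicates, 2.93 and 3.13 CPM, and 3 and 0 counts in the MK2 replicates. The MK1 level was 53.9-fold that of MK2, with a 95% counting interval of 18.1 to 264. Its partner Cd79b (chromosome 11, 106311341 to 106314529, minus strand) had 71 counts in each MK1 replicate, 2.33 and 2.64 CPM, and 0 counts in MK2. Setting MK2 at 3 counts over both libraries made Cd79b at least 44.2-fold higher in MK1. The library totals put a count of 0 at up to 0.0987 to 0.119 CPM. These and all later intervals and floors cover counting error only. A fold given as at least takes the MK1 count without its own counting error, so it is not the lower limit of such an interval.

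Surface receptors of mature B cells were next. Cd22, a sialic-acid-binding inhibitor of the B-cell receptor (chromosome 7, 30865404 to 30880342), had 87 and 84 counts in MK1 and 3 and 7 in MK2, 15.99-fold (interval 8.48 to 33.9). Fcer2a, the low-affinity IgE receptor CD23 (chromosome 8, 3681737 to 3694174), had 64 and 54 counts in MK1 and 6 and 8 in MK2, 7.88-fold (interval 4.51 to 14.9). Ms4a1, which encodes CD20 (chromosome 19, 11250603 to 11266151), had 49 and 33 counts in MK1 and 0 in MK2, at least 25.6-fold. These 3 genes stood at 1.23 to 3.13 CPM in the MK1 cultures and at 0 to 0.282 CPM in the MK2 cultures. The tetraspanin Cd37 (chromosome 7, 45233632 to 45238839) had 67 and 43 counts in MK1 and 2 in each MK2 library, 25.7-fold (interval 9.76 to 96.0). Cr2, which encodes complement receptors of B cells and follicular dendritic cells (chromosome 1, 195136811 to 195176715), had 21 and 22 counts in MK1 and 1 and 0 in MK2, 40.2-fold with a wide interval of 6.84 to 1624.

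The intracellular B-cell genes had fewer counts. Blk, a Src-family kinase of B cells, had 26 and 22 counts in MK1 and 0 in MK2, at least 15.0-fold. Bank1, a B-cell scaffold protein, had 32 and 29 counts in MK1 and 0 and 1 in MK2, 57.0-fold (interval 9.86 to 2289). Blnk, the adaptor that links the receptor to downstream enzymes, had 16 and 13 counts in MK1 and 1 and 3 in MK2, 6.78-fold (interval 2.38 to 26.5). The lineage transcription factors were near the limit of detection. Pax5, which maintains B-cell identity, had 8 counts in each MK1 library and 0 and 1 in MK2, 15.0-fold (interval 2.32 to 627). Ebf1, which specifies the B lineage and is also expressed outside it, had 8 and 9 counts in MK1 and 5 and 3 in MK2, 1.99-fold, and its interval of 0.813 to 5.32 included 1. Ebf1 is thus the B-cell member whose difference was not detectable at this depth.

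Compared between genes on a per-length scale (TPM, counts divided by gene length and set to a common total), the B-cell genes in MK1 were led by the receptor chains. Mean TPM in MK1 was 4.77 for Cd79a, 4.35 for Cd79b, 3.25 for Cd37, 1.83 for Fcer2a, 1.45 for Cd22 and 1.45 for Ms4a1. The remaining 6 ranged from 0.708 for Blk to 0.254 for Cr2. By TPM, Cd79a stood at the 39.5th percentile of genes with a count in MK1, and Cr2 at the 20.9th. In this ordering the general leukocyte genes Arhgdib (11.9 TPM) and Lcp1 (6.29 TPM) had higher means than Cd79a, Coro1a (4.10 TPM) and Cd52 (3.43 TPM) had means between those of Cd79b and Cd37, and Cd68 (34.7 TPM) was the highest member.

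The promoters of the B-cell members were searched for 3 short motifs on both strands. Promoters are windows of 300 bases around a RefSeq start, mostly upstream of it (build GRCm38.p6, the assembly that mm10 denotes), and 9 of the 12 B-cell members had 12 such windows. The motifs were ATGCAAAT, the octamer bound by POU factors, CCCNNGGG, the palindromic core of EBF sites, and GAGGAAGT, a PU.1-type ETS site. The octamer was found in 1 of the 12 windows (Blnk), the EBF core in 2 (Cd22 and Bank1) and the PU.1 motif in 1 (Cd37). Among all 32817 promoter windows of that length, 1.74% held the octamer, 13.7% the EBF core and 3.20% the PU.1 motif. A match is a run of letters and not a shown binding site. The windows of Cd79a, the B-cell member with the highest TPM, of Cd22, with an EBF core, and of Blnk, with an octamer, are shown with matches in capitals. Those of Cd22 and Blnk lie wholly inside the gene, whose 5' end in the deposited annotation is at 30880342 and 40994535. They thus surround starts downstream of the outermost one.
Cd79a promoter, chr7:24897247-24897546, plus strand: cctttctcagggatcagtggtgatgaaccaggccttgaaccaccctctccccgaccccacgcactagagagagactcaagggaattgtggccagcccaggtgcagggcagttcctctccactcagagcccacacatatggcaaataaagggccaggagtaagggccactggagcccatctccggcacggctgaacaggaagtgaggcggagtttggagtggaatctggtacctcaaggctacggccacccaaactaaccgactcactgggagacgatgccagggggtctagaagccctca
Cd22 promoter, chr7:30878979-30879278, minus strand: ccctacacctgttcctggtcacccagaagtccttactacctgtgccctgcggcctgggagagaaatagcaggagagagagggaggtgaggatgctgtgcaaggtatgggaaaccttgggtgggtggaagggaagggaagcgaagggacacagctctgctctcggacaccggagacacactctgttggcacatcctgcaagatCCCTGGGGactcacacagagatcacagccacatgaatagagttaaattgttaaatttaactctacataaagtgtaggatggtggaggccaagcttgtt
Blnk promoter, chr19:40994172-40994471, minus strand: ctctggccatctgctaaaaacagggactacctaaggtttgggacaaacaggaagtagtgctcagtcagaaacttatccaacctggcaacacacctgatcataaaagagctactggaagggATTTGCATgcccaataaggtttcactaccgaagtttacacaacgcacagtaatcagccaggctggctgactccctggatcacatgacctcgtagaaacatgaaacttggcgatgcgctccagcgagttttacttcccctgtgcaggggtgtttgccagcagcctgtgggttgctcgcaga
Cd79a had no match to any of the 3 motifs in this window, which says only that these letters are not in it. In Blnk the capitals read as the reverse complement of the octamer.

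Genes expressed across leukocytes were counted in MK1 in every one of 10 cases. Ptprc, which encodes the leukocyte common antigen CD45 (chromosome 1, 138062859 to 138175305), had 85 and 64 counts in MK1 and 0 and 1 in MK2, 139-fold (interval 24.6 to 5538). Laptm5, a lysosomal protein of blood cells (chromosome 4, 130913334 to 130936148), had 64 and 46 counts in MK1 and 0 and 1 in MK2, 103-fold (interval 18.1 to 4098). The surface proteins Cd52 and Cd53 had 23 and 24, and 20 and 24, counts in MK1 and 0 in MK2. All 4 stood at low levels in the MK1 cultures, from 0.658 CPM (Cd53) to 2.80 CPM (Ptprc). Cd48, a ligand of SLAM-family receptors, and Srgn, the granule proteoglycan serglycin, were sparser, with 14 and 19 counts over both MK1 libraries and 0 in MK2, at least 4.36-fold and 5.92-fold.

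Members of this group that act on the cytoskeleton or its GTPases had 7 to 32 counts in MK2. Lcp1, the actin bundler L-plastin (chromosome 14, 75131123 to 75230842), had 343 and 398 counts in MK1 and 4 and 10 in MK2, 49.5-fold (interval 29.3 to 91.0). Arhgdib, a GTPase inhibitor of blood cells (chromosome 6, 136923709 to 136941717), had 194 and 165 counts in MK1 and 13 and 19 in MK2, 10.5-fold (interval 7.30 to 15.6). Coro1a, the actin regulator coronin 1A, had 105 and 75 counts in MK1 and 6 and 1 in MK2, 24.0-fold (interval 11.4 to 60.6). Rac2, a small GTPase of blood cells, had 94 and 70 counts in MK1 and 22 and 5 in MK2, 5.68-fold (interval 3.76 to 8.88). The MK2 cultures were uneven for Rac2, at 0.874 and 0.176 CPM, yet both lay below the MK1 values of 3.09 and 2.61 CPM. Its log2 difference went from -2.47 to -3.98 without MK2 replicate 1.

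The myeloid members split into 4 genes with reads and 6 with almost none. Cd68, a lysosomal glycoprotein used as a macrophage marker (chromosome 11, 69664371 to 69666062), stood at 18.0 and 15.4 CPM in MK1 and at 2.14 and 3.10 CPM in MK2, 6.32-fold (interval 5.29 to 7.59). Cd14, the lipopolysaccharide co-receptor (chromosome 18, 36725067 to 36726654), stood at 6.77 and 7.67 CPM in MK1 and at 0.437 and 0.740 CPM in MK2, 12.0-fold (interval 8.39 to 17.8). Both genes were counted in all 4 libraries and were the most abundant myeloid members in each line. Csf1r, the receptor for macrophage colony-stimulating factor, had 25 and 16 counts in MK1 and 2 and 4 in MK2, 6.39-fold (interval 2.70 to 18.4). Ctss, the endosomal protease cathepsin S of antigen-presenting cells, B cells included, had 32 and 22 counts in MK1 and 0 in MK2, at least 16.8-fold.

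The other 6 myeloid members had 6 counts or fewer over both libraries of a line. Tyrobp, the adaptor DAP12, and Cd207, the Langerhans-cell lectin langerin, had 0 counts in all 4 libraries. Fcer1g, the Fc-receptor gamma chain, had 3 counts over both MK1 libraries and 1 over both MK2 libraries. Lyz2, which encodes lysozyme of macrophages and neutrophils, had 2 and 4 counts in MK1 and 0 in MK2. The integrin Itgam, which encodes CD11b, had 6 counts in MK1 and 5 in MK2, a ratio of 1.12 (interval 0.285 to 4.65), and Itgax, which encodes CD11c, had 1 in each line. At this depth no difference was detectable for Fcer1g, Itgam or Itgax.

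T-cell genes were also near 0. Cd3g, a chain of the T-cell receptor complex (chromosome 9, 44969572 to 44980431), had 0 counts in all 4 libraries, and Cd3e had 1 count, in MK1 replicate 2. The co-receptor Cd4 had 1 and 2 counts in MK1 and 0 in MK2. Cd8a, the other co-receptor, had 4 and 6 counts in MK1 and 3 in each MK2 library, 1.56-fold (interval 0.513 to 5.22), which includes 1. In MK1 the 4 T-cell members summed to 0.250 ± 0.121 CPM and the 12 B-cell members to 17.6 ± 0.0844 CPM. These sums cover different numbers of genes, and the members were picked after B-cell reads were seen in MK1. Nothing is therefore read from the difference between the 2 sums.

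The 2 MK1 cultures were compared with each other, a comparison that the choice of members did not use. Replicate 2 over replicate 1, scaled by total counts, was 0.995 for the summed B-cell genes (95% binomial interval 0.877 to 1.13), 1.05 for the general leukocyte genes (0.960 to 1.16) and 0.924 for the myeloid genes (0.833 to 1.02). Of 27 members with 10 counts or more in MK1, 25 had an interval that included 1, among them all 12 B-cell genes, whose ratios ran from 0.728 for Cd37 to 1.28 for Ebf1. The exceptions were Lcp1, at 1.32 (1.14 to 1.52), and Cd68, at 0.860 (0.755 to 0.978). For the sparse genes these intervals are wide, and they compare 2 libraries rather than conditions.

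**Figure D3:**
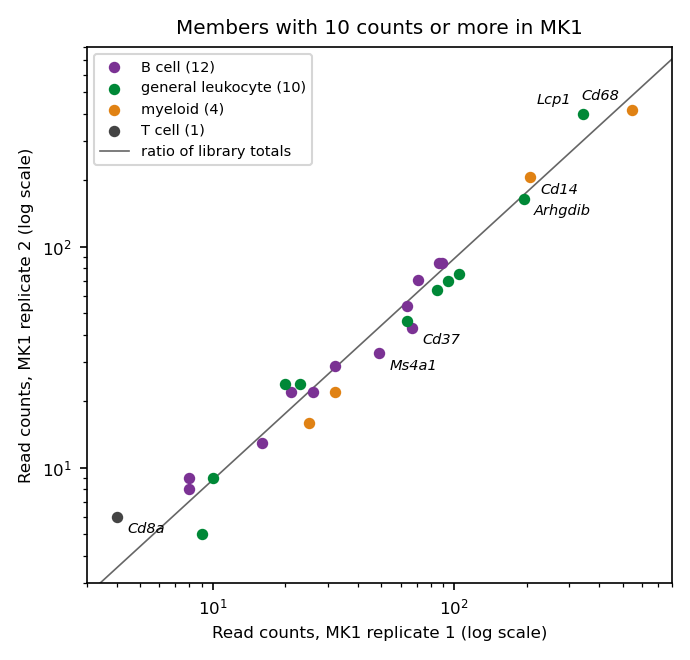
Read counts of the 27 members with 10 counts or more in MK1, replicate 1 (horizontal) against replicate 2 (vertical), both on log scales, coloured by lineage group, with a line at the ratio of the library totals. Points of all groups lie along the line, with Lcp1 above it and Cd68 below it.

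Other mature B-cell genes, 34 in all and none of them a member, were mostly counted in MK1. Of these 34, 32 had 10 counts or more in MK1 and 9 in MK2. Among the 24 tested, 20 were called lower in MK2, 1 higher and 3 not called, with a median log2 difference of -4.00 beside -0.01 over all genes tested. Of the 24, 18 reached the count filter through MK1 alone, and the list was drawn up with the B-cell reads known, so the count is a description beside the 28.6% called lower over all genes tested. The same holds for the other lists, and a gene that reached the filter through MK1 alone was tested only because it was high there. Among the genes named from the lists below, these are Cd74, Igll1, Prdm1, Mef2b, Mzb1, Cd2, Cybb, Ccr7, Batf3, Lsp1, H2-Aa, H2-Ab1 and H2-Eb1. In MK1, Cd74, a chaperone of class II molecules, had a level of 17.8 ± 0.168 CPM, and MK2 had 3 counts of it. Lyn, a Src-family kinase found in many cell types, fell from 22.6 ± 1.39 to 5.51 ± 1.68 CPM (edgeR adjusted p = 5.29e-04), and the octamer coactivator Pou2af1 from 4.30 ± 0.611 to 1.51 ± 0.164 CPM (edgeR adjusted p = 0.00238). Chst3, a sulfotransferase, was the gene called higher, at 1.48 ± 0.00665 CPM in MK1 and 9.69 and 3.28 CPM in the MK2 replicates, with a log2 difference of 2.12 that was 1.15 without MK2 replicate 1. It was not called without MK1 replicate 1 (edgeR adjusted p = 0.0882) or MK1 replicate 2 (edgeR adjusted p = 0.0770). The 3 genes not called were Plcg2 (42.3 CPM in MK1 and 49.5 CPM in MK2), Siglecg (1.77 and 2.17 CPM) and Zfp318 (31.7 and 40.4 CPM, edgeR adjusted p = 0.0524).

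In the lists of other B-cell stages a smaller share of genes had 10 counts or more in MK1. These were 3 of 10 precursor genes and 8 of 12 germinal-centre and plasma-cell genes, beside 32 of the 34 above. Some were well counted in both lines and not called. S1pr2 of the germinal-centre list had 1193 counts in MK1 and 1117 in MK2, and Cd93 of the precursor list 97 and 119. Of 10 precursor genes, Rag1, Vpreb2 and Erg had 0 counts in all 4 libraries, and Rag2, Dntt, Il7r and Vpreb3 had 0 to 2 counts in each. The only precursor gene called was Igll1, with 27 counts in MK1 and 9 in MK2 (edgeR adjusted p = 0.0272), and that call ended without any 1 of the 4 libraries (edgeR adjusted p from 0.0920 to 0.158) with no count filter (edgeR adjusted p = 0.0557), with the replicate block (edgeR adjusted p = 0.0669) and in DESeq2 (adjusted p = 0.287). Of 12 germinal-centre and plasma-cell genes, Gcsam and Tnfrsf17 had 0 counts in all 4 libraries, 4 were called lower and 1 higher. Prdm1, a repressor active in plasma cells and in epidermis, went from 6.74 ± 1.21 to 0.659 ± 0.763 CPM, with a log2 difference of -3.30 that was -5.77 without MK2 replicate 2. Mef2b went from 1.23 ± 0.527 to 0.210 ± 0.0969 CPM and was not called without MK1 replicate 2 (edgeR adjusted p = 0.0610). Bcl6, a repressor of germinal-centre B cells that other tissues also express, had means of 21.8 CPM in MK1 and 14.0 CPM in MK2 and was not called without MK1 replicate 1 (edgeR adjusted p = 0.0840). Fkbp11 rose from 3.22 ± 0.974 to 21.2 ± 0.301 CPM. Mzb1, chosen after its values were seen, had 23 counts in MK1 and 1 in MK2.

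Genes of T cells, NK cells and myeloid cells beyond the members were mostly sparse. Of 20 further T-cell genes, 11 had 3 counts or fewer in MK1, 1 was called lower and 3 higher. Bcl11b, tested and not called, had 1823 counts in MK1 and 1258 in MK2. Gata3, a factor of T cells and of epidermis, rose from 2.14 ± 0.603 to 8.58 ± 1.63 CPM. Cd28 and Tcf7 were higher at means of 3.92 and 1.36 CPM in MK2, against 1.71 and 0.470 CPM in MK1, but neither was called without MK1 replicate 1 (edgeR adjusted p = 0.169 and 0.0865), without MK1 replicate 2 (edgeR adjusted p = 0.0917 and 0.0914) or without MK2 replicate 2 (edgeR adjusted p = 0.127 and 0.0529). In DESeq2, Tcf7 was not called either (adjusted p = 0.0604). Cd2, which mouse B cells also carry, had 34 counts in MK1 and 0 in MK2, at least 10.6-fold, and was too sparse to test without MK1 replicate 1. Of 12 NK and cytotoxic genes, 8 had 0 counts in all libraries and none was tested; the most counted, Eomes, had 4 counts in MK1 and 7 in MK2.

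Of 20 further monocyte and macrophage genes, 10 had 0 counts in MK1, among them Aif1, C1qa, C1qb and C1qc. Cybb, a phagocyte oxidase subunit that B cells also express, was the only one with enough counts to be tested, which it reached through MK1, and it had 41 counts in MK1 and 0 in MK2, at least 12.8-fold. Of 16 granulocyte and mast-cell genes, 9 had 0 counts in all libraries, and Cxcr2 was called higher at 3.05 and 4.72 CPM, a call that ended without MK1 replicate 1, MK1 replicate 2 or MK2 replicate 1 (edgeR adjusted p = 0.133, 0.169 and 0.107), with the replicate block (edgeR adjusted p = 0.0705) and in DESeq2 (adjusted p = 0.121). Of 10 dendritic-cell genes, Flt3 and Clec9a had 0 counts and 3 were called lower. These were Zbtb46, from 3.30 ± 0.858 to 0.816 ± 0.143 CPM, Ccr7, a lymph-node homing receptor that naive lymphocytes share, with 56 counts in MK1 and 0 in MK2, and Batf3, with 23 counts and 2. Batf3 was not called in DESeq2 (adjusted p = 0.0822) and was too sparse to test without MK1 replicate 1 or MK1 replicate 2. The globin genes of red cells had 0 counts in all 4 libraries.

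Further genes shared across leukocytes and the class II genes are given as a description too, since most were tested through MK1 alone and 28.6% of all genes tested were called lower. Of 30 further general leukocyte genes, 21 were tested, 17 of them through MK1 alone, and 16 were called lower, 1 higher and 4 not called, with a median log2 difference of -2.85. The phosphatase Ptpn6, which epithelia also express, fell from 27.0 ± 0.620 to 13.1 ± 0.00943 CPM, and Lsp1 from 1.38 ± 0.0966 to 0.212 ± 0.150 CPM. Dock8 was called higher, at 0.868 and 2.02 CPM, but not without MK1 replicate 1 or MK1 replicate 2 (edgeR adjusted p = 0.0610 and 0.0881) or in DESeq2 (adjusted p = 0.0551). Of 7 MHC class II genes, which B cells, dendritic cells and some stimulated epithelia express, 5 were tested through MK1 alone, 6 were called lower and H2-DMa was not. Their counts summed to 1082 and 962 in the MK1 replicates and to 54 and 92 in the MK2 replicates. Replicate 2 over replicate 1 in MK1 was 1.01 (0.923 to 1.1004). Nearly all MK2 counts were of H2-DMa (23 and 36) and H2-DMb1 (29 and 56). H2-Aa, H2-Ab1 and H2-Eb1 had 476, 642 and 460 counts over both MK1 libraries, and 0, 0 and 1 over both MK2 libraries.

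**Figure D4:**
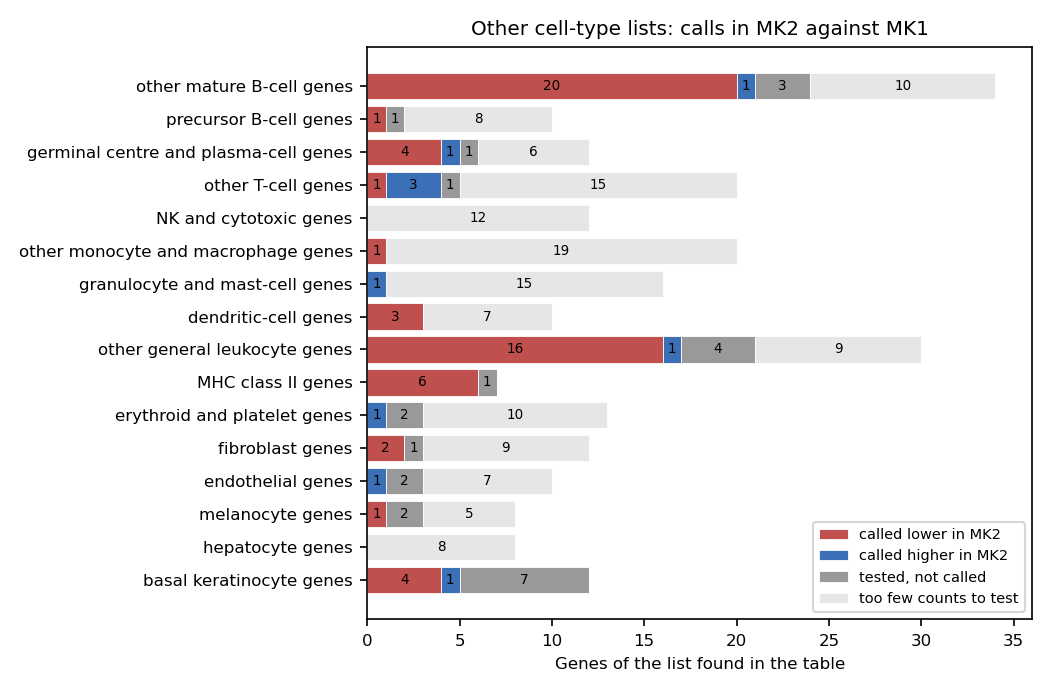
Number of genes in each of 16 other cell-type lists (horizontal axis) that were called lower in MK2 (red), called higher (blue), tested and not called (dark grey) or too sparse to test (light grey). Genes called lower are most numerous in the longest lists, other mature B-cell genes (20 of 34, 24 tested) and other general leukocyte genes (16 of 30, 21 tested). Of the genes tested, 6 of 7 MHC class II and 3 of 3 dendritic-cell genes were called lower too, beside 28.6% over all genes tested. Most T-cell, NK, monocyte and granulocyte genes were too sparse to test.

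Overlapping annotation could affect few members. In the deposited annotation 0 members shared exonic bases with another gene of the table. In the GENCODE M21 annotation of the same assembly, 73.7% of the exonic bases of Itgam were shared with the model Gm49368 on the same strand, and 12.4% of those of Arhgdib with Pde6h on the opposite strand. Opposite-strand overlap reached 10.7% for Cd22, 9.40% for Cd3e and 5.03% for Lcp1, and 1.57% or less for Coro1a and Cd37. The counting command names no strand option, so reads from these partners cannot be told apart from those of the members.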

How the data were processed

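Read counts per gene were used as the authors deposited them, not normalised. Per the file headers, TopHat alignments were counted over exons by featureCounts 1.4.6-p4 with the UCSC mm10 annotation and no strand option. The submitters' processing notes name DESeq2 1.10.1, featureCounts 1.5.0 (another version than the header), TopHat2 2.0.13 and Bowtie2 2.2.6. The header's command names the second line MKU, and its columns MK2. No count column was without a sample (0 columns) and 0 rows lacked a gene name. Columns were matched to samples by line and replicate in the titles.

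The test across genes was that of edgeR 4.0.16, run under R 4.3.3 (quasi-likelihood F test, two-sided, filterByExpr with a minimum count of 10, TMM scaling, Benjamini-Hochberg adjustment at 0.05) in 2 against 2 libraries. DESeq2 1.42.0 was an alternative. CPM use TMM-scaled library sizes, and TPM the deposited gene lengths. Folds of single genes come from counts summed over a line, with exact binomial (Clopper-Pearson) 95% intervals, and a line at 0 was set at 3 counts over both libraries. Of 237 listed genes in 16 lists, 232 matched by symbol, 2 by a RefSeq synonym and 3 did not. The procedure was tested on simulated data.

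The members and lists were chosen with earlier results of these data known. Members with 10 counts or more in a line are given by library, and of each list up to 4 called genes with the highest CPM. Some listed genes are not reported here. Alternatives covered scaling, the count filter, DESeq2, each library left out, the replicate number as a block and, for sums, the most counted member left out. The design text calls the cultures biological replicates. P-values compare the difference between the lines with the spread between the replicate cultures of each line.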

Additional observations from a re-analysis of the deposited data

How the results depend on the processing

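Each of the 22 tested members kept its direction under all alternatives (0 of 220 values reversed), and 5 values lost the call, for Blnk, Csf1r and Rac2 as given with the results. Leaving out 1 library moved the count of all genes called lower in MK2 from 3575 to between 2189 and 3625, and that of genes called higher from 3235 to between 1527 and 3222. These fits had 3 libraries. The count of members called lower ran from 19 to 22. Without the most counted gene of each group, the log2 ratio of the summed CPM (MK2 over MK1) went from -4.36 to -4.44 for the B-cell genes, from -2.90 to -3.47 for the myeloid genes and from -4.37 to -3.87 for the general leukocyte genes. For the T-cell genes it could not be computed, since MK2 then had 0 counts. With no low-count filter, 33 members could be fitted and 25 were called lower, beside 3840 of 16776 genes.

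Cultures with the same number did not deviate together (correlation across genes -0.15), and nothing in the labels pairs them. With the replicate number as a block (paired analysis), 3175 genes were called lower and 2733 higher, and all 22 members were again called lower. Among the listed genes named above, the block ended the calls of Igll1, Cxcr2 and Dsg3. With the numbers crossed, an alternative chosen after seeing the data, 3886 genes were called lower, 3568 higher and 22 members lower. Depth limits the members of under 10 counts in MK1, where a difference of a few-fold would not be detectable.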

Other observations

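Twist1, a transcription factor of mesenchyme, fell from 36.3 ± 5.97 CPM in MK1 to 1.22 ± 0.0230 CPM in MK2 (edgeR adjusted p = 1.46e-05), and it was 1 of 12 fibroblast genes listed. Of the others, Pdgfra, tested through MK1 alone, fell from 2.88 ± 0.489 to 0.653 ± 0.473 CPM. Its log2 difference was -2.11, and -1.93 without MK1 replicate 1, where it was not called. Fap had 10 counts in MK1 and 0 in MK2, Vim was not called, and Dcn, Lum and Pdgfrb had 0 counts throughout. Ppbp, a platelet chemokine that other cells can also make, had 177 and 2315 counts in the MK2 cultures and 37 and 27 in MK1. Its log2 difference was 5.31, and 2.65 without MK2 replicate 2. It was no longer called higher without MK1 replicate 1 or MK1 replicate 2 (edgeR adjusted p = 0.0769 and 0.0715). Krt15, a basal keratin, was uneven between the MK2 cultures, at 702 and 7 counts, beside 145 and 120 in MK1.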
